A study of Mus musculus with 12 samples.

Results

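Cultured mouse joint fibroblasts exposed to I-BET151 for 24 h were compared with fibroblasts from paws of vehicle-treated mice, to ask which transcripts the inhibitor changed in the dish. The comparison used 6 of the 12 RNA sequencing libraries of the series, 3 in each group, and 16793 of the 55413 genes in the deposited table, namely those with a mean of at least 3 log2 units over these 6 libraries. All 6 libraries came from BALB/c mice, an inbred laboratory strain, whose left paws had received monosodium urate crystals, the crystals of gout, on day 0 and again on day 9. Such paws are called primed, and both groups were primed, so that no unprimed cells enter here. Paw cells were released with collagenase, pooled over 2 to 3 paws and grown for 5 passages. RNA dated to day 18 was then prepared. The vehicle group (3 libraries, called vehicle 1, 2 and 3 below) came from mice injected intraperitoneally with vehicle. The treated group (3 libraries, in vitro 1, 2 and 3) was given 1 µM I-BET in culture for the last 24 h before harvest. Whether the mice that gave the treated cells had been injected with vehicle, and whether a solvent was added to the vehicle cultures, is not in the labels. Nothing in the labels assigns the libraries of a group to separate animals, so the p-values below measure the spread between pooled cultures.

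BET proteins, such as Brd2 and Brd3, bind acetylated lysines of histone tails through their bromodomains and bring the elongation factor P-TEFb to promoters and enhancers, where it releases paused RNA polymerase II. I-BET151 is a small molecule that occupies the bromodomain pocket and displaces these proteins from chromatin. Genes driven by large enhancers and by signal-dependent factors such as NF-kB, AP-1 and the interferon-activated STATs are known to need this step, and synovial fibroblasts, the stromal cells of the joint lining, are a known source of cytokines, chemokines and matrix-degrading enzymes in arthritis.

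The values were regularized log2 (rlog) values, in which 1 unit is a factor of 2. They keep no read counts, so the depth behind each value is unknown, and they are not corrected for gene length, so levels of different genes cannot be ranked. Differences are given as treated minus vehicle with their standard error (SE). A gene is said to rise or fall only where its Benjamini-Hochberg adjusted p from limma was under 0.05. A fit repeated without each library in turn gave 6 leave-one-out fits, and the number that called a gene is stated where it was not all 6. For an uncalled gene the value is given where leaving out a library made it pass.

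Library in vitro 3 stood nearer to the vehicle group than in vitro 1 and 2 did. Principal component 1, with 69.29% of the variance, placed vehicle 1, 2 and 3 at -54.66, -55.38 and -69.05, in vitro 1 and 2 at 77.79 and 66.6, and in vitro 3 at 34.7. Component 2, with 14.45%, set vehicle 1 (40.65) and in vitro 3 (35.61) apart from the other 4 libraries (-33.75 to -9.62). Among the genes that fell, in vitro 3 was the treated library closest to vehicle in 62.4%, and among those that rose in 68.6%. The mean over 12 fibroblast markers (such as Col1a1 and Pdgfra) was 14.53 to 14.94 in vehicle and 14.12 to 14.53 in treated libraries, and none of the 12 lay below 3 in all libraries. Of 11 lymphocyte markers 10, of 10 neutrophil markers 8 and of 7 mast cell markers 6 lay below 3 in all 6 libraries. Macrophage markers were present on both sides, with list means of 7.71 to 8.45 in vehicle and 6.88 to 8.26 in treated libraries. Pigment cell markers had means of 5.97 to 6.39 and 5.35 to 5.80. Schwann cell markers had higher means, 9.11 to 10.91 and 10.03 to 10.86, and none of the 9 lay below 3 in all libraries. Within each group Schwann, pericyte and skeletal muscle means were highest in vehicle 1 and in vitro 3. Chondrocyte means were lowest in these libraries. The part of these marker differences in the results below was not tested, and in bulk RNA fewer cells of a type and less RNA per cell cannot be told apart.

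After 24 h with the inhibitor 2228 genes had risen (13.3% of those tested) and 3000 had fallen (17.9%), 31.1% in all, and the falls were the larger changes. Shares of 13.3% and 17.9% are thus the background for the list counts below. Among the falls 293 genes (1.74%) reached 3 log2 units and 1750 (10.4%) reached 1 unit, whereas 6 rises (0.0357%) reached 3 units and 606 (3.61%) reached 1 unit. Rises were scarcer among weakly expressed genes, with 5.27% rising and 18.4% falling at a mean of 3 to 5. Of genes with a mean of 11 to 13 a share of 18.4% rose and 15.3% fell. The split of small changes depended on scaling. With libraries centred on their median 3195 genes rose and 2453 fell, with quantile normalization 3232 and 2471, and the median over all genes moved from -0.04 to 0.06 and 0.08. In 48.9% of the genes tested all treated libraries lay on the same side of all vehicle libraries. No gene was called in the opposite direction in any of these fits, and 2477 of the 5228 called genes were called in all 6 leave-one-out fits. Leaving out in vitro 1 gave 1144 rises and 1819 falls, leaving out in vitro 2 gave 1000 and 1737, and leaving out in vitro 3 gave 2080 and 2802. A single fit over all 12 libraries of the series called 390 and 695.

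**Figure D1:**
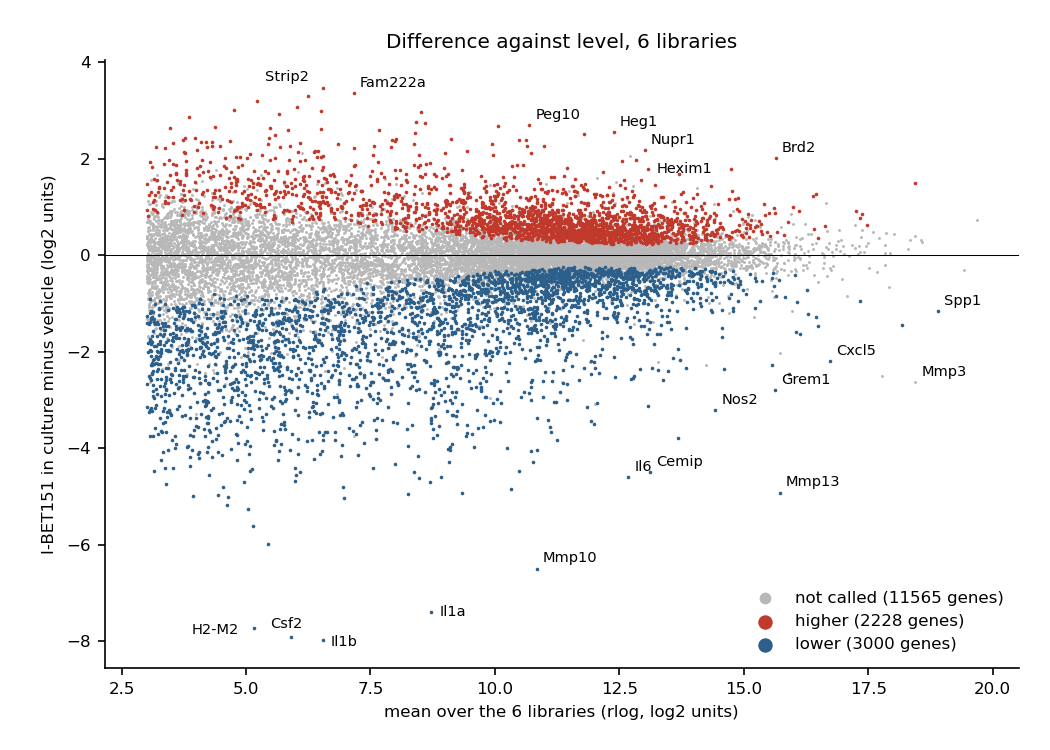
Difference between treated and vehicle libraries (vertical axis, log2 units) against the mean rlog over the 6 libraries (horizontal axis, log2 units) for 16793 genes, 1 point a gene, with genes called higher in red and lower in blue. Of the labelled genes Il1b, Csf2, H2-M2 and Il1a fell deepest, between -7.97 and -7.39, and Strip2 rose most, by 3.47.

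The targets of the compound and the P-TEFb machinery were examined first. Brd2, on chromosome 17 (chr17:34112023-34122634, GRCm38, minus strand), stood at 14.63, 14.61 and 14.67 in vehicle 1, 2 and 3 and at 16.77, 16.70 and 16.47 in the treated libraries. Its rise of 2.01 ± 0.11 (limma adjusted p = 0.00178) left a gap of 1.80 units between the lowest treated and the highest vehicle library. The relative Brd3 (0.15 ± 0.07, limma adjusted p = 0.175) did not pass, although its groups did not overlap. Hexim1 (chr11:103116231-103119725, plus strand), whose product holds P-TEFb inactive in the 7SK particle and which is a common reporter of BET inhibition, stood at 12.39, 12.19 and 11.98 against 13.92, 14.13 and 13.85, a rise of 1.78 ± 0.13. Mepce, the capping enzyme of 7SK RNA, rose by 0.49 ± 0.08, and Cdk9, the kinase of P-TEFb, differed by -0.13 ± 0.09 and was not called. The related Hexim2 went the other way, from 7.51, 6.70 and 7.22 to 5.90, 5.86 and 6.20 (-1.15 ± 0.27, called in 3 of 6 leave-one-out fits), and Ell2, a subunit of the super elongation complex, fell by 0.82 ± 0.14. Of 19 tested genes of BET proteins and P-TEFb 4 rose and 3 fell, against 13.3% and 17.9% over all genes, with a median of 0.07. Median-centred libraries raised the count of rises to 8.

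Genes that are known to rise with BET inhibitors rose in 6 of 7 cases, with a median of 0.88 against -0.04 over all genes. The list included Hexim1, Serpini1, a neuronal serine protease inhibitor (1.28 ± 0.22), Zcchc24 (0.68 ± 0.15), Hist2h2be (0.69 ± 0.16, 4 of 6 leave-one-out fits) and Hist1h2bk. The last was weakly expressed, at 2.74, 2.72 and 2.98 in vehicle and 4.25, 4.27 and 3.95 in treated libraries. The exception, Hist1h2bc, differed by 0.36 ± 0.14.

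Histone genes, which encode the proteins that package DNA, were the largest group of rises by count among the lists. Of 25 tested genes 16 rose and none fell, with a median of 0.88. Both other scalings gave 18 rises and no fall, and the fit without in vitro 3 gave 14 and none. Hist1h4h, a histone H4 gene, stood at 9.00, 8.21 and 9.17 in vehicle and 11.06, 11.01 and 11.20 in treated libraries, a rise of 2.30 ± 0.25. Hist1h2bj (2.03 ± 0.30), Hist1h4i (1.87 ± 0.19) and Hist1h2be (1.47 ± 0.18) followed, with no overlap between the groups. Of the 7 list genes with other symbols, variant and linker histones, 5 rose, among them H2afx (1.34 ± 0.10), H3f3b (1.06 ± 0.17) and the linker histone H1f0 (1.11 ± 0.12). Over all 40 tested genes whose symbol begins with Hist, a set put together after the values were seen, 26 rose and none fell, with a median of 1.23. The libraries were made from polyadenylated RNA, and most clustered histone messages carry no poly(A) tail. Whether the values of the clustered genes report tailed or untailed forms was not tested. In the same libraries 1 of 55 cell cycle genes rose (4 without in vitro 3), 2 fell and the median was 0.04, and Mki67, the proliferation marker, differed by 0.42 ± 0.19 (limma adjusted p = 0.137). Without in vitro 3 the difference of Mki67 was 0.64 and passed (limma adjusted p = 0.0126).

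Transcription factors of early signalling changed in part. Fosl1, the AP-1 subunit Fra-1, fell by 2.22 ± 0.37, from 12.81, 13.18 and 13.33 to 10.44, 10.42 and 11.79, with in vitro 3 the highest treated library. Batf (-1.50 ± 0.35, 3 of 6), Maff (-1.39 ± 0.31, 4 of 6) and the weakly expressed Batf2 (-1.33 ± 0.26) fell too, while Jund rose by 0.82 ± 0.23 (1 of 6). Thus 4 of 15 AP-1 genes fell (2 without vehicle 2 or vehicle 3) and 2 rose, against 17.9% and 13.3% over all genes. Fos (1.24 ± 0.58) was not called. Myc, a textbook target of BET inhibitors in blood cancers, stood at 11.77, 12.23 and 12.27 in vehicle and 12.04, 12.08 and 12.33 in treated libraries. The groups overlapped and the difference was 0.06 ± 0.16 (limma adjusted p = 0.792). Its relative Mycl fell by 2.72 ± 0.28 from 7.17, 7.22 and 7.81 to 4.50, 4.53 and 5.01, and Mxd3, a repressor that competes with Myc for its partner, rose by 1.52 ± 0.25. Of 26 ribosome biogenesis genes, many of them known Myc targets, 1 rose and 2 fell (9 without vehicle 3). Of 16 immediate-early genes 1 fell, Csrnp1 (-1.19 ± 0.23), and none rose.

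**Figure D2:**
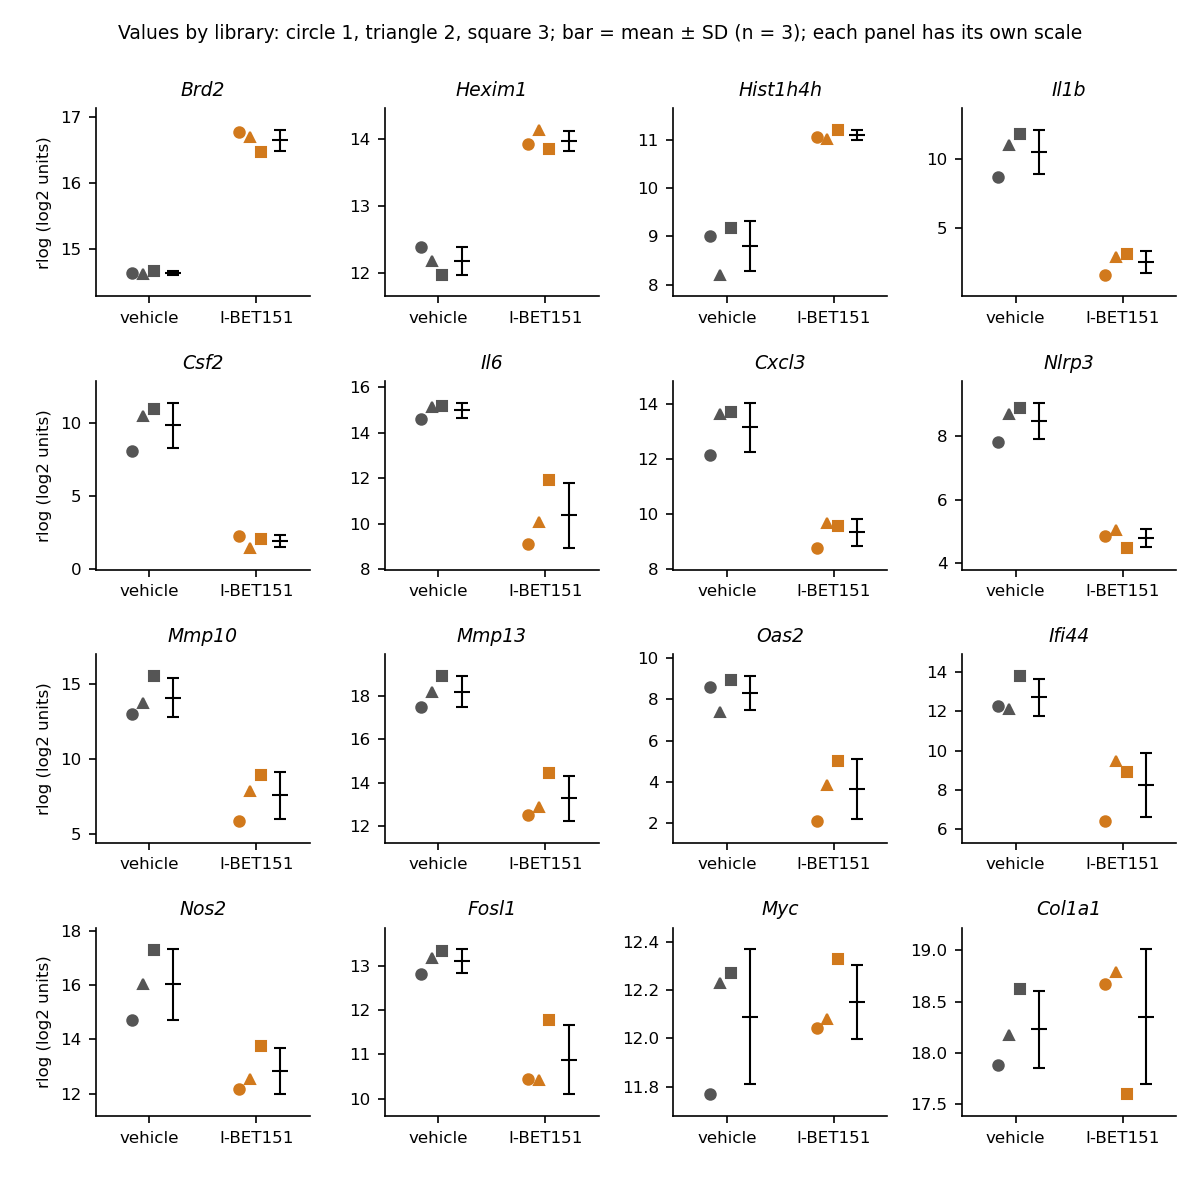
Values of 16 genes in each library (vertical axes, rlog in log2 units, 1 scale per panel), with vehicle in grey and treated libraries in orange, circles for library 1, triangles for 2 and squares for 3, and the mean with its SD beside them (n = 3). Brd2, Hexim1 and Hist1h4h are higher in each treated library, the 11 inflammatory and matrix genes from Il1b to Fosl1 are lower in each, and Myc and Col1a1 overlap.

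Interleukins and colony-stimulating factors, the secreted signals by which stroma calls and feeds myeloid cells, showed 13 falls and no rise among 22 genes, and their median was -1.75. Il1b, which encodes the fever cytokine interleukin-1 beta (chr2:129364570-129371139, minus strand), stood at 8.70, 11.07 and 11.80 in vehicle and 1.63, 2.92 and 3.11 in treated libraries. Its fall of 7.97 ± 0.82 (limma adjusted p = 0.00232) was the deepest among the named genes. Il1a, its neighbour on chromosome 2, went from 11.86, 12.36 and 13.02 to 2.24, 5.35 and 7.48 (-7.39 ± 1.19), with a wide treated spread and in vitro 3 again highest. Csf2, the gene of GM-CSF, went from 8.10, 10.51 and 10.93 to 2.28, 1.47 and 2.09 (-7.90 ± 0.72), so that each treated library lay below 3. Il6 (chr5:30013114-30019981, plus strand) stayed well expressed, at 9.13, 10.06 and 11.94 against 14.60, 15.15 and 15.20, a fall of 4.60 ± 0.65 (limma adjusted p = 0.00411). Il1f9, an interleukin-36 gene, fell by 4.80 ± 0.56, Tslp by 3.95 ± 0.46, Csf3, the gene of the neutrophil growth factor G-CSF, by 3.14 ± 0.48 and Lif by 3.12 ± 0.42. The antagonist Il1rn fell as well, from 10.62, 11.68 and 11.97 to 9.40, 10.13 and 7.47 (-2.42 ± 0.69, 3 of 6). Il34, a ligand of the macrophage growth factor receptor, fell by 1.67 ± 0.16.

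Chemokines, which direct leukocyte migration, showed 14 falls and no rise among 28 genes, with a median of -1.77. Centring on the median called 1 of them higher and quantile normalization 3, beside 14 and 15 lower. The neutrophil attractants of the CXCR2 group were among the falls. Cxcl3 stood at 12.14, 13.63 and 13.71 in vehicle and 8.78, 9.67 and 9.57 in treated libraries (-3.82 ± 0.45), and Cxcl2 at 12.01, 14.24 and 14.01 against 10.61, 10.13 and 10.10 (-3.14 ± 0.56). Both showed their lowest vehicle value in vehicle 1. Cxcl5 (-2.19 ± 0.34) and Cxcl1 (-2.28 ± 0.25) fell from 17.14, 18.29 and 18.04 to 15.30, 16.11 and 15.49 and from 16.11, 17.09 and 16.94 to 14.52, 14.47 and 14.31. Ccl20, a ligand for cells of the Th17 type, fell by 3.67 ± 0.65 and the interferon-induced Cxcl10 by 2.00 ± 0.16. Ccl2, the main monocyte attractant, fell by 1.28 ± 0.26 from 16.57, 17.41 and 17.30 to 15.92, 16.05 and 15.48, and Ccl17 (-3.97 ± 1.01) was called in 2 of 6 leave-one-out fits.

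The promoters of 3 of these chemokines and of Il6 hold a stretch that matches an NF-kB pattern, searched on both strands from 250 bases before to 50 bases after the RefSeq start (GRCm38.p6). They are shown because all 4 genes fell. Each line gives the 160 bases before the start in the direction of transcription, with the match in capitals. Cxcl3 is chr5:90785941-90786100, Cxcl1 chr5:90891085-90891244, Cxcl2 chr5:90903739-90903898 and Il6 chr5:30012954-30013113, all on the plus strand.
Cxcl3: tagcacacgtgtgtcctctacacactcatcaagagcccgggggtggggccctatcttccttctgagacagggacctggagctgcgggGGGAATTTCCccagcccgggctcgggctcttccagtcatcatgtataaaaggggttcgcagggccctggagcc
Cxcl1: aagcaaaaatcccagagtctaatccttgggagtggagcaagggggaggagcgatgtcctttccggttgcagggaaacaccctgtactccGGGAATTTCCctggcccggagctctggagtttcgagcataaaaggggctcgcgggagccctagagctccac
Cxcl2: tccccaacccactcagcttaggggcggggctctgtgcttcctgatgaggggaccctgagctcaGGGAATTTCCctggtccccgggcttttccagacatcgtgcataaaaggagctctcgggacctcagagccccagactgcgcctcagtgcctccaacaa
Il6: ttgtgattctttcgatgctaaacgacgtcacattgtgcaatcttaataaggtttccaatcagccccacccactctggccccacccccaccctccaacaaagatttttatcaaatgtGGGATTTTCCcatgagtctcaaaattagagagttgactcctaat
The pattern occurs in 0.498% of the 11836 tested genes that have such a window and in 0.411% of all 32851 windows. It was found in 3 of 21 chemokine genes, 3 of 15 interleukin and colony-stimulating factor genes and 4 of 31 genes of NF-kB subunits, regulators and adaptors. Of 1667 genes that rose none held it, and of 2236 that fell 15 did (0.671%), close to the share of all tested genes. Among these, the 210 that fell by at least 3 units held it in 6 cases (2.86%). A match is a description of letters and not a measured site, and its part in the changes was not tested.

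Receptors for these signals moved in both directions, with 13 of 31 falling and 6 rising, against 17.9% and 13.3% over all genes. Without in vitro 1 these counts were 8 and 2, and without in vitro 2 no rise was called, with 3 and 2 rises without vehicle 2 and vehicle 3. Il13ra2, the decoy receptor for interleukin-13, went from 12.58, 12.55 and 13.45 to 8.02, 8.54 and 9.93 (-4.03 ± 0.49). Il1rl1, the receptor for interleukin-33, fell from 14.50, 16.08 and 16.12 to 12.56, 12.03 and 10.77 (-3.78 ± 0.58), Il7r by 3.93 ± 0.41 and Ccr1 by 3.58 ± 0.71. Il1rap, the shared signalling chain of the interleukin-1 family, fell by 1.08 ± 0.11. Rises were found for Osmr, the oncostatin M receptor (1.27 ± 0.29, 4 of 6), Lifr (1.07 ± 0.34, 1 of 6) and Il4ra (0.71 ± 0.16, 4 of 6). Vehicle and in vitro 3 values of Lifr nearly met, at 11.60 and 11.65.

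TNF superfamily ligands and receptors showed 13 falls and 1 rise among 23 genes, with a median of -1.08, and without in vitro 2 the falls were 5. Tnfsf15, an endothelial and stromal cytokine, stood at 8.32, 8.12 and 8.04 against 4.92, 4.54 and 5.23 (-3.27 ± 0.25). The costimulatory receptors Tnfrsf9 (-2.65 ± 0.58, 4 of 6), Tnfrsf14 (-2.62 ± 0.42) and Cd40 (-2.26 ± 0.32) fell. Tnfsf11, the osteoclast-inducing ligand RANKL, fell by 1.40 ± 0.31 (4 of 6), from 9.88, 9.32 and 9.72 to 7.67, 8.20 and 8.85, and its decoy receptor Tnfrsf11b fell as well (-1.91 ± 0.46, 3 of 6). Both belong to a list of 16 osteoclast and bone genes, of which 5 fell, 2 without vehicle 3 or in vitro 2, and none rose.

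Interferon-stimulated genes, the antiviral set switched on by interferon receptors, fell most often of all 50 lists of genes grouped by function. Of 76 tested genes 65 fell and 1 rose, and the median was -2.77 against -0.04 over all genes. The list mean lay between 10.44 and 11.44 in the vehicle libraries and between 7.31 and 8.88 in the treated ones. Oas2, a sensor enzyme for double-stranded RNA, stood at 8.59, 7.41 and 8.96 in vehicle and 2.08, 3.85 and 5.00 in treated libraries (-4.67 ± 0.76, limma adjusted p = 0.00597). Ifi44 went from 12.26, 12.10 and 13.79 to 6.42, 9.45 and 8.89 (-4.46 ± 0.82), Ifit3 from 12.75, 12.08 and 13.90 to 6.91, 9.38 and 9.57 (-4.29 ± 0.77) and Isg15, a ubiquitin-like modifier, from 12.45, 11.99 and 13.79 to 7.96, 10.86 and 10.27 (-3.05 ± 0.79, 4 of 6). In these 4 genes in vitro 1 was the lowest treated library and the groups did not overlap. Without in vitro 3 the count was 67 lower and 1 higher. Ifit3b, Oas3, Rsad2, Mx1 (5 of 6), Usp18 and the RNA sensors Ifih1 and Ddx58 fell by 1.73 to 4.59. Ifit1bl1 rose, from 6.52, 7.23 and 6.53 to 7.81, 8.08 and 7.91 (1.17 ± 0.25, 5 of 6). Members of the Ifit, Oas, Mx and Ifi20 families are near copies of their neighbours, and reads shared between copies make single values uncertain.

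Promoters of the interferon-stimulated genes carried the interferon-stimulated response element on either strand in 36 of the 58 genes with a window (62.1%), against 3.68% of all tested genes with a window and 3.44% of all windows. Of the genes that rose 2.04% held it, of those that fell 6.13%, and of those that fell by at least 3 units 14.3%. Ifit3 (chr19:34583369-34583528) and Ifit1 (chr19:34640729-34640888), both on the plus strand, are shown with their 2 matches each in capitals, since both fell and lie near each other.
Ifit3: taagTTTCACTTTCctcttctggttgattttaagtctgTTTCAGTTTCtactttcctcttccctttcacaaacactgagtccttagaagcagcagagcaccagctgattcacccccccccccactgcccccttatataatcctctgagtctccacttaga
Ifit1: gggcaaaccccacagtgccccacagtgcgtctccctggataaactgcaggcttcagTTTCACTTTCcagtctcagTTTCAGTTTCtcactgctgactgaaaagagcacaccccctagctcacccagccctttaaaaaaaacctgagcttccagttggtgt
Ifit1 fell by 3.43 ± 0.74, from 13.30, 13.04 and 14.57 to 8.56, 11.32 and 10.76. Ifit1bl1, the member that rose, is also among the 36 genes with a match.

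The interferon signalling machinery moved in both directions, with 10 of 29 genes lower, 6 higher and a median of -0.29. Without in vitro 1 the counts were 6 and 3, and 3 rises were called without vehicle 2 or in vitro 2. Irf9 (-1.39 ± 0.24) and Stat2 (-1.03 ± 0.21), which act in the factor that binds the response element, fell. Tlr3, a receptor for double-stranded RNA, fell from 10.52, 10.56 and 10.92 to 8.28, 8.89 and 8.69 (-2.05 ± 0.20) and Irf5 by 1.42 ± 0.26, while Irf1 fell by 0.49 ± 0.11 (5 of 6). Irf7, the amplifier of the response, overlapped between the groups. It stood at 13.52, 12.00 and 13.50 in vehicle and at 8.79, 10.78 and 12.82 in treated libraries, and its difference of -2.21 ± 0.97 did not pass (limma adjusted p = 0.124). Without in vitro 3 it was -3.23 and passed (limma adjusted p = 0.0193). The kinase gene Jak1 (0.88 ± 0.14), Stat5a (1.07 ± 0.16) and the feedback inhibitor Socs3 (1.01 ± 0.17) rose.

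Class I antigen presentation, which interferons induce, showed 16 falls and no rise among 25 genes (median -1.42), with 9 falls without vehicle 3 or in vitro 1 and 10 without in vitro 2. The immunoproteasome subunits Psmb8 (-2.75 ± 0.53) and Psmb10 (-2.03 ± 0.18) and the peptide transporters Tap2 (-1.52 ± 0.24) and Tap1 (-1.19 ± 0.30, 2 of 6) fell. Cd274, the checkpoint ligand PD-L1, stood at 9.82, 10.18 and 10.70 against 6.83, 7.10 and 7.89 (-2.96 ± 0.33). Nlrc5, the transactivator of class I genes, fell by 2.42 ± 0.31. The invariant light chain gene B2m overlapped between groups (-0.84 ± 0.42, limma adjusted p = 0.176), and without in vitro 3 its difference was -1.28 and passed (limma adjusted p = 0.025). Non-classical genes such as H2-Q6 (-4.49 ± 1.08, 3 of 6) and H2-Q7 (-3.52 ± 0.90, 2 of 6) are near copies of each other. H2-M2, outside the list and on chromosome 17 too, went from 7.53, 9.76 and 9.79 to 0.61, 0.55 and 2.74 (-7.73 ± 0.82).

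Regulators of NF-kB showed 18 falls and 1 rise among 37 genes, the rise being Bcl3 (0.67 ± 0.10), with a median of -0.43, and 11 falls were called without vehicle 2 or in vitro 2. Feedback inhibitors and adaptors gave the largest falls, with Tnip3 at 8.91, 9.20 and 9.08 against 5.98, 5.24 and 4.85 (-3.71 ± 0.31), Traf1 at -3.35 ± 0.45, the kinase Irak2 at -1.77 ± 0.13 and Birc3 at -1.68 ± 0.26. The deubiquitinase gene Tnfaip3 (-1.53 ± 0.37) was called in 2 of 6 leave-one-out fits. Among the subunits Nfkb1 was at -0.67 ± 0.18 (2 of 6) and Rela at -0.41 ± 0.12 (1 of 6).

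Pattern receptors showed 12 falls and no rise among 18 genes (median -1.56). Tlr2 stood at 12.50, 13.68 and 12.72 against 10.53, 10.77 and 10.57 (-2.34 ± 0.29), and Cd14, the co-receptor for bacterial lipids, at 11.05, 11.42 and 12.27 against 8.60, 9.36 and 8.93 (-2.61 ± 0.33). Tlr4 (-1.06 ± 0.12), its partner Ly96 (-1.61 ± 0.18), Tlr1 (-2.70 ± 0.43) and Tlr7 (-2.66 ± 0.56) fell. Cd14 was also the single macrophage marker of 18 tested that fell, and none rose, though 2 rose without in vitro 3.

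Inflammasome genes showed 9 falls and 2 rises among 21 genes. Nlrp3, the sensor that urate crystals are known to engage (chr11:59541568-59566956, plus strand), stood at 7.82, 8.69 and 8.89 in vehicle and 4.85, 5.05 and 4.48 in treated libraries (-3.67 ± 0.34, limma adjusted p = 0.00203). Gsdmd, the pore-forming gasdermin, fell from 11.82, 12.10 and 12.07 to 8.62, 9.20 and 9.68 (-2.83 ± 0.26), and the ATP-gated channel P2rx7 fell by 1.70 ± 0.21. Casp4 (-1.34 ± 0.14) and Casp8 (-1.10 ± 0.10) fell, whereas Casp1, the protease that matures interleukin-1 beta, had non-overlapping groups but did not pass (-1.04 ± 0.37, limma adjusted p = 0.0722). Txnip, a thioredoxin-binding protein (1.13 ± 0.28, 2 of 6), and the weakly expressed Nlrp10 (2.03 ± 0.53, 4 of 6) rose.

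Enzymes that make small inflammatory mediators fell in part. In the prostaglandin list 7 of 21 genes fell and none rose. Ptgs2, the inducible cyclooxygenase, went from 16.52, 17.22 and 17.65 to 14.09, 14.56 and 15.37 (-2.46 ± 0.39), Ptges, which makes prostaglandin E2, fell by 1.94 ± 0.35, and falls were called for the constitutive Ptgs1 (-1.32 ± 0.22) and the prostacyclin receptor Ptgir (-2.52 ± 0.34). In nitric oxide and arginine metabolism 5 of 16 fell and 1 rose, with 3 falls without in vitro 1 or 2 and 8 without vehicle 1. Nos2, the inducible nitric oxide synthase, stood at 14.72, 16.04 and 17.30 against 12.16, 12.53 and 13.77 (-3.20 ± 0.68, 4 of 6), and Ass1, which regenerates arginine, fell by 2.17 ± 0.15 to 12.64, 12.47 and 12.77, with no overlap. Arg1 (-4.99 ± 1.23, 2 of 6) rested on a vehicle group of 7.63, 3.34 and 8.33.

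Acute-phase and antimicrobial genes fell in 7 of 20 cases (4 without vehicle 2 or vehicle 3, 2 without in vitro 2) and rose in 2, with S100a8 at -3.20 ± 0.69 (5 of 6), Camp at -2.94 ± 0.61 (5 of 6) and Saa2 at -2.10 ± 0.57 (3 of 6). S100a8 and Camp are also the 2 neutrophil markers that could be tested, the other 8 being below 3 in every library, and the part of neutrophils in these falls was not tested. Complement genes fell in 3 of 23 cases, C1s1, C1ra and Masp1, each by less than 1 unit and each called in 1 or 2 of 6 leave-one-out fits, and without in vitro 3 there were 4 rises. Among leukocyte adhesion molecules 7 of 18 fell (4 without vehicle 3 or in vitro 2) and 3 rose. Over all genes the shares were 17.9% and 13.3%. Vcam1 fell by 1.02 ± 0.22 from 13.33, 13.80 and 13.65 to 12.81, 12.83 and 12.09, Sele fell by 2.47 ± 0.44, and Icam1 overlapped (-0.56 ± 0.28), though without in vitro 1 it passed (-0.86, limma adjusted p = 0.0353).

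**Figure D3:**
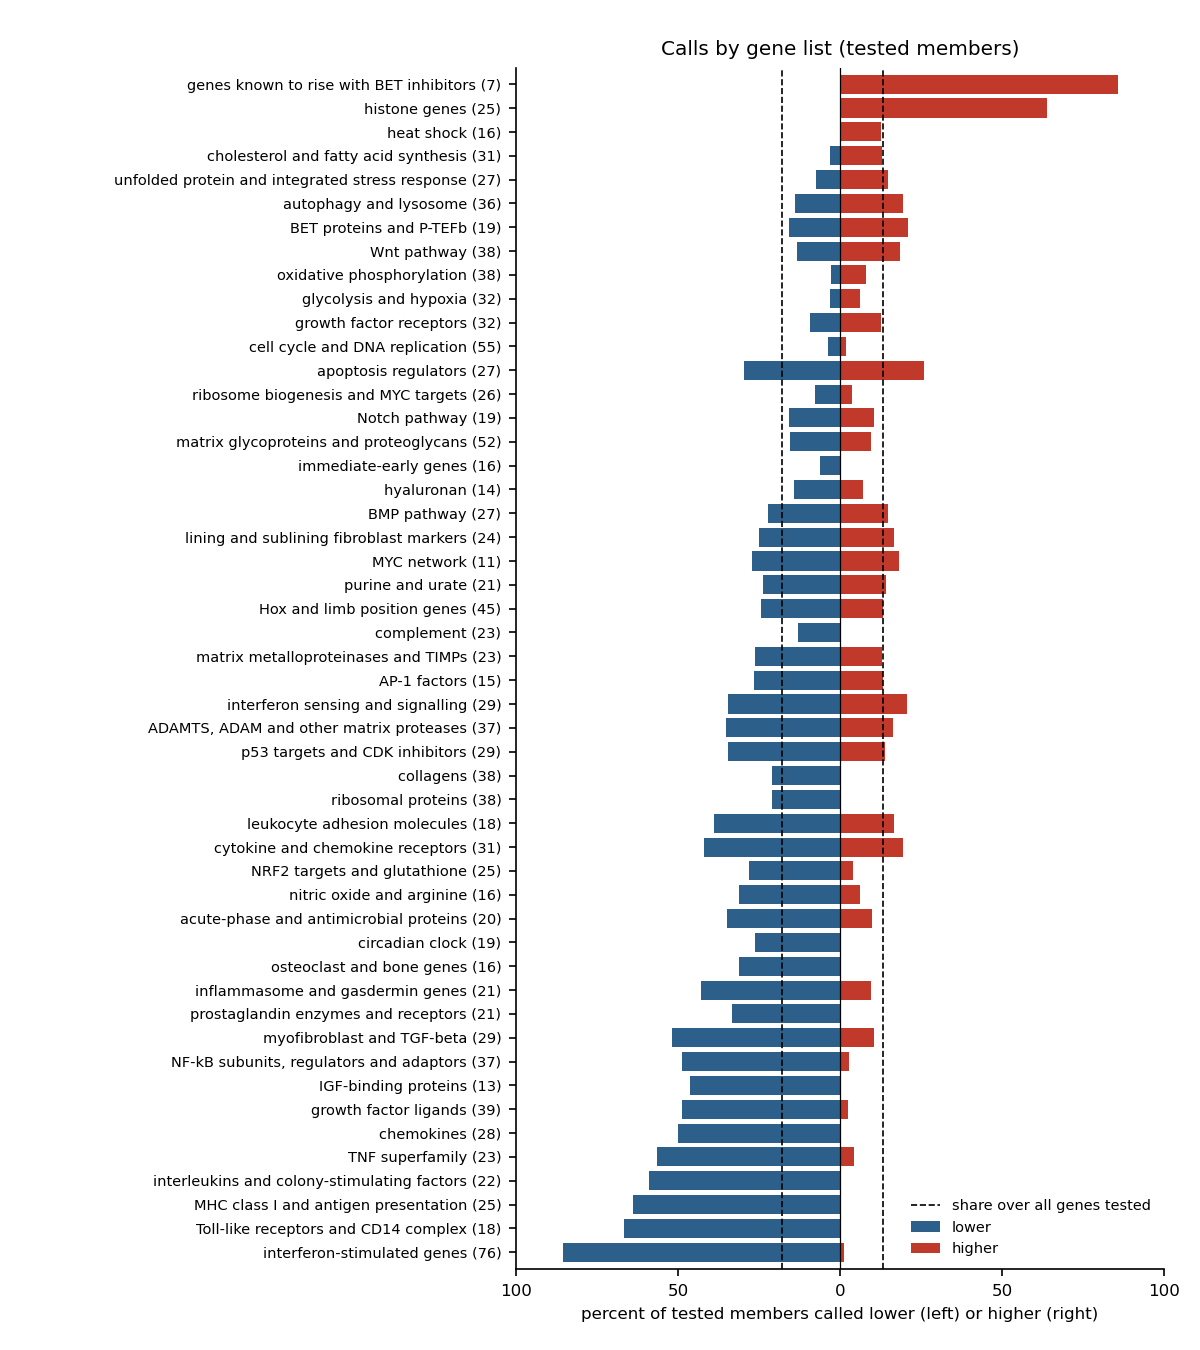
Share of tested members called higher (red, right) or lower (blue, left) in each of 50 gene lists, with the number tested in brackets and dashed lines at the shares over all genes (13.3% and 17.9%). Interferon-stimulated genes, pattern receptors, class I presentation and interleukins have the largest blue bars, and genes known to rise with BET inhibitors and histones the largest red ones.

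Matrix metalloproteinases, the enzymes that cut collagen and other matrix proteins, include members with deep falls, while the counts for the list were not far from the background. Of 23 metalloproteinase and TIMP genes 6 fell and 3 rose, against 17.9% and 13.3% over all genes. The falls were 5 genes of the cluster on chromosome 9 and the inhibitor gene Timp4 (-1.48 ± 0.26). Mmp13, the main rodent collagenase, stood at 17.47, 18.18 and 18.90 in vehicle and 12.49, 12.85 and 14.45 in treated libraries (-4.92 ± 0.56, limma adjusted p = 0.00272). Mmp10 went from 13.02, 13.72 and 15.51 to 5.89, 7.91 and 8.98 (-6.49 ± 0.89). Mmp3, a stromelysin, stood at 18.72, 20.07 and 20.47 against 15.26, 18.51 and 17.60. Its groups did not overlap, yet its difference of -2.62 ± 0.85 missed the threshold (limma adjusted p = 0.0555). It passed without vehicle 1 (-3.14) and without in vitro 2 (-3.32). In contrast, the gelatinase gene Mmp2 (-0.52 ± 0.24) and the membrane-bound Mmp14 (-0.17 ± 0.14) were not called, although Mmp2 passed without in vitro 3 (-0.73, limma adjusted p = 0.0477), and Mmp11 (0.75 ± 0.13), the inhibitor Timp2 (0.63 ± 0.17, 1 of 6) and the membrane inhibitor Reck (1.03 ± 0.19) rose.

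That cluster lies between bases 7272514 and 7581885 of chromosome 9. Of 8 tested genes there, Mmp1b being outside the list above, 6 fell, in order Mmp13, Mmp12 (-3.49 ± 0.71), Mmp1b (-5.61 ± 0.81), Mmp1a (-3.85 ± 0.49), Mmp10 and Mmp27 (-2.79 ± 0.35), and Mmp3 and Mmp8 (-2.60 ± 0.99) were lower without passing. Mmp8 passed without vehicle 2 (-3.41, limma adjusted p = 0.0484). Mmp1a, annotated as a polymorphic pseudogene, and Mmp1b are near copies of each other, and Mmp1b overlaps Mmp12 on the opposite strand. An AP-1 pattern (TGANTCA on either strand) lies in the window of 5 of 18 metalloproteinase and TIMP genes that have one. As above, the window runs from 250 bases before to 50 bases after the start. The pattern was in 6.71% of all tested genes with a window and 7.81% of all windows. Of the 210 genes that fell by at least 3 units 60 held it (28.6%). Of all genes that rose 4.56% held it and of all that fell 11.7%. The 160 bases before the start of Mmp13 (chr9:7272354-7272513), Mmp1a (chr9:7463981-7464140) and Mmp10 (chr9:7502182-7502341), all on the plus strand, are given as 3 of the cluster genes that fell and hold a match, shown in capitals.
Mmp13: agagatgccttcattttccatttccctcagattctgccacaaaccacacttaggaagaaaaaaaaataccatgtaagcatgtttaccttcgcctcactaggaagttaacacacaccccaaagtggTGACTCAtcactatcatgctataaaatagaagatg
Mmp1a: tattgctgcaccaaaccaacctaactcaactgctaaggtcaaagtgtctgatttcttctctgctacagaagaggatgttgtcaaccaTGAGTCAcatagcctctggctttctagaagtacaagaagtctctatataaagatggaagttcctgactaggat
Mmp10: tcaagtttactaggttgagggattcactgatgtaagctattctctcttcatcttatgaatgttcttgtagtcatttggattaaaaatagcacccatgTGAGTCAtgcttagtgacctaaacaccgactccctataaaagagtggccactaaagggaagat
The letters TATAAA were in 27.1% of the windows of the 210 genes, 12.9% of those of all genes that fell, 6.84% of those that rose and 9.48% of all tested. The E-box CACGTG was in 3.33% of the 210, but in 10.6% of all genes that fell, the same share as of those that rose, and 11.3% of all tested. These shares describe the windows and were not tested.

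A further run of neighbours on chromosome 5 joins the CXC chemokines to genes of the EGF family. From Cxcl5 to Btc (bases 90759360 to 91402994) the tested protein-coding genes were 12, and 8 of them fell. After Cxcl5, Ppbp (-1.47 ± 0.25), Cxcl3, Cxcl1 and Cxcl2 came the EGF receptor ligands Epgn (-2.65 ± 0.48), Ereg (-2.38 ± 0.38) and Areg (-2.79 ± 0.51). Ereg stood at 13.81, 15.25 and 14.33 against 12.54, 11.64 and 12.07, and an antisense transcript overlaps it. Pf4 and Btc overlapped between groups.

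**Figure D4:**
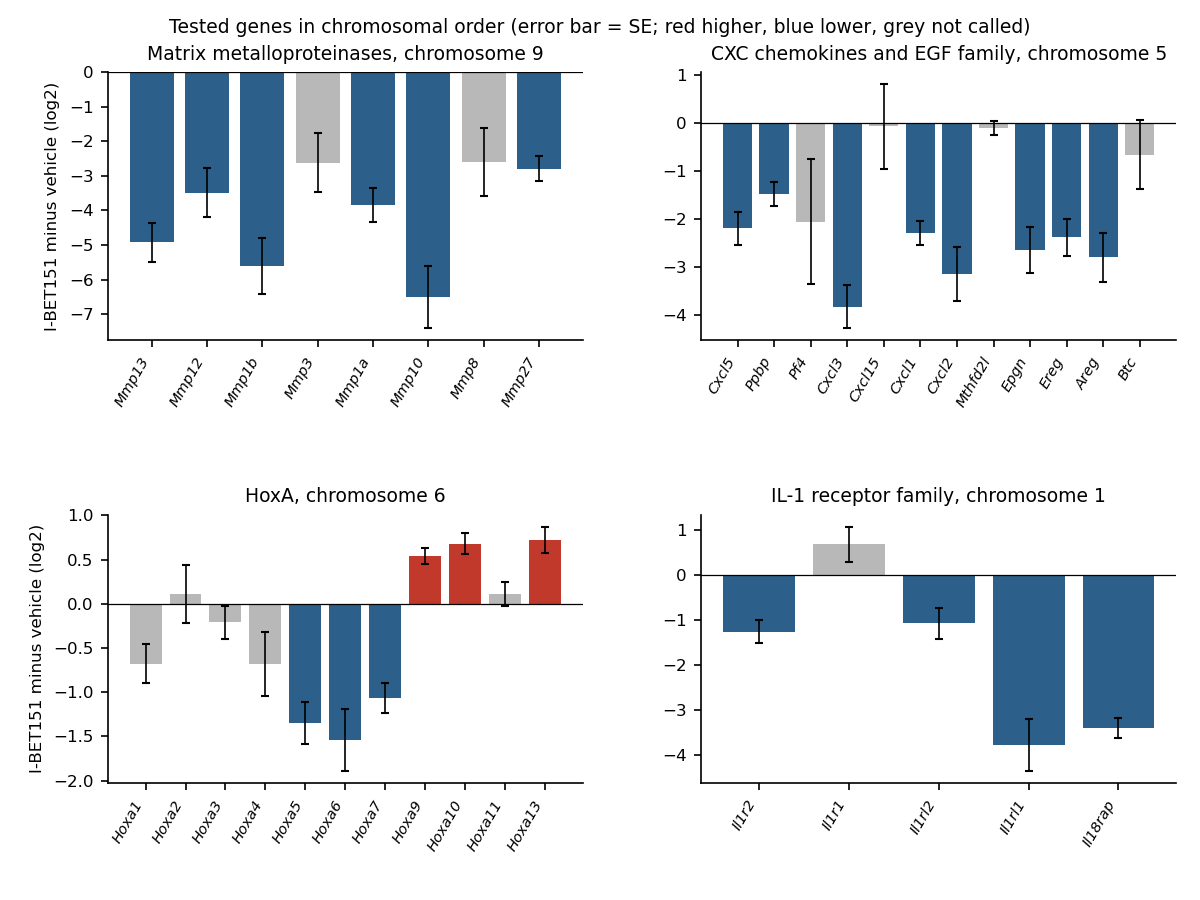
Difference of treated minus vehicle libraries (log2 units, bars, with SE) for tested genes in their order along 4 gene clusters, red where called higher, blue where called lower and grey otherwise. All 8 metalloproteinase genes are below 0 and 6 are called lower, 8 of 12 genes of the chemokine cluster fell, and in the HoxA cluster Hoxa5 to Hoxa7 fell while Hoxa9, Hoxa10 and Hoxa13 rose.

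Other matrix proteases and their inhibitors showed 13 falls and 6 rises among 37 genes (3 without vehicle 2, vehicle 3, in vitro 1 or in vitro 2). Serpinb2, an inhibitor of plasminogen activators, stood at 11.57, 11.36 and 12.46 against 6.42, 6.12 and 8.07 (-4.92 ± 0.54), and the urokinase receptor Plaur fell by 2.30 ± 0.27. Adam12 (-2.94 ± 0.27), Adamts14 (-2.06 ± 0.38) and the collagen-degrading cathepsin Ctsk (-1.50 ± 0.20) fell. The aggrecanases parted, since Adamts5 rose from 13.79, 13.89 and 13.85 to 16.06, 15.97 and 14.88 (1.80 ± 0.30) and Adamts4 fell by 0.72 ± 0.20 (1 of 6). Plat, the tissue plasminogen activator, rose by 1.46 ± 0.27. Cemip, a hyaluronan-degrading protein outside the lists, went from 14.61, 16.01 and 15.44 to 10.67, 10.80 and 11.11 (-4.49 ± 0.33), and Has2, a hyaluronan synthase, fell by 2.09 ± 0.65 (2 of 6). Tnfaip6, which transfers proteins onto hyaluronan, rose by 1.88 ± 0.21.

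Structural matrix genes gave few calls. Of 38 collagen genes 8 fell and none rose, against 17.9% falling and 13.3% rising over all genes, and with either scaling 1 or 3 rose and 6 or 7 fell. Leaving out in vitro 1 gave 5 falls, in vitro 2 gave 3, and in vitro 3 gave 4 rises and 7 falls. Col1a1 stood at 17.88, 18.18 and 18.63 in vehicle and 18.67, 18.79 and 17.59 in treated libraries, where in vitro 3 lay below the whole vehicle group and the other 2 above it (0.12 ± 0.37, limma adjusted p = 0.822). The collagens that fell included the basement membrane gene Col4a3 (-3.52 ± 0.51) and Col15a1 (-1.92 ± 0.45, 4 of 6). Among 52 matrix glycoproteins and proteoglycans 5 rose and 8 fell, shares no higher than over all genes, with 0 to 8 rises and at least 5 falls when 1 library was left out. The wound matrix genes Tnc (-1.64 ± 0.27), Tnn (-2.27 ± 0.35) and Thbs1 (-1.44 ± 0.33, 3 of 6) and the bone matrix gene Spp1 (-1.16 ± 0.21) fell, and Efemp1 (1.20 ± 0.31, 3 of 6) and Vcan (0.82 ± 0.24, 2 of 6) rose. Fn1, the fibronectin gene, stood at 18.76, 19.54 and 19.66 against 20.55, 20.39 and 19.21 and overlapped. Dcn showed the spread within the treated group, at 13.23, 14.79 and 16.13 against 16.86, 16.18 and 17.16 (-2.02 ± 0.68, limma adjusted p = 0.0622), and without in vitro 3 it was -2.73 and passed (limma adjusted p = 0.0113).

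Contractile and TGF-beta genes of the myofibroblast showed 15 falls and 3 rises among 29 genes (median -0.66). Acta2, smooth muscle actin, stood at 16.55, 16.63 and 16.48 against 15.59, 15.53 and 15.65, a small and even fall of 0.96 ± 0.10 (limma adjusted p = 0.00239). Cnn1 (-1.98 ± 0.28) and Myl9 (-1.71 ± 0.19), both of the contractile apparatus, fell, and Tagln (-0.27 ± 0.10) was not called. Inhba, the activin A subunit, went from 16.06, 15.29 and 15.99 to 13.13, 12.75 and 14.41 (-2.35 ± 0.43), its antagonist Fst fell by 1.96 ± 0.21 and Tgfb1 by 0.66 ± 0.13. Smad3, which relays these signals, rose by 1.02 ± 0.12.

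Markers of synovial position gave no common direction, with 6 of 24 lower and 4 higher against 17.9% and 13.3% over all genes. Without in vitro 1 the counts were 2 and 1, without in vitro 2 they were 3 and 0, without vehicle 3 they were 3 and 2, and without vehicle 2 there was 1 rise. Prg4, the lubricin gene of the lining, stood at 16.16, 16.20 and 15.38 against 16.82, 16.46 and 16.40, with non-overlapping groups and no call (0.64 ± 0.25, limma adjusted p = 0.089). Thy1, the sublining marker, overlapped (-0.18 ± 0.33). Cd248, a sublining membrane protein, rose by 1.73 ± 0.39 (3 of 6), and Pdgfra (-0.95 ± 0.27, 2 of 6), Mfap5 (-2.04 ± 0.19) and Dpp4 (-1.44 ± 0.33, 3 of 6) fell.

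Growth factor ligands showed 19 falls and 1 rise among 39 genes, the rise being Kitl (0.67 ± 0.18, 3 of 6), with a median of -0.66, and 12 falls were called without in vitro 1 and 10 without in vitro 2. Of 32 of their receptors 4 rose (2 without in vitro 2) and 3 fell, against 13.3% and 17.9% over all genes. Fgf1 (-3.29 ± 0.42), the placental growth factor Pgf (-3.22 ± 0.83, 2 of 6) and the vasoconstrictor Edn1 (-2.44 ± 0.29) fell. Vegfa was not called (-0.93 ± 0.37, limma adjusted p = 0.0962) but passed without vehicle 2 (-1.23, limma adjusted p = 0.0492). In the insulin-like growth factor system 6 of 13 genes fell and none rose, among them the proteases Pappa2 (-3.63 ± 0.37) and Pappa (-3.46 ± 0.48), their inhibitor Stc2 (-2.82 ± 0.43) and the binding protein Igfbp3 (-2.10 ± 0.40).

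Developmental pathways gave calls in both directions. In the BMP list 6 of 27 fell and 4 rose, close to the 17.9% and 13.3% over all genes, and without in vitro 1 or 2 the counts were 3 and 2. The secreted antagonist Grem1 (17.02, 16.68 and 17.40 against 13.25, 14.21 and 15.24, -2.80 ± 0.47) fell together with the ligands Bmp2 (-4.95 ± 1.17, 2 of 6) and Gdf5 (-1.81 ± 0.43, 3 of 6) and the receptor Acvrl1 (-3.05 ± 0.24). The target genes Id1 (1.13 ± 0.18) and Bambi (1.21 ± 0.24) rose. In the Wnt list 7 of 38 rose and 5 fell, not far from the same background, with the rises including the receptors Fzd4 (7.94, 8.19 and 7.65 against 10.56, 10.81 and 9.61, 2.40 ± 0.32) and Fzd8 (1.10 ± 0.12), the co-receptor Lgr4 (1.36 ± 0.20) and the ligand Wnt16 (2.37 ± 0.48, 5 of 6). Without in vitro 1 or 2 the list had 1 fall and without vehicle 3 it had 2. Its rises numbered 3 without in vitro 2 and 4 without in vitro 1 or vehicle 2. The falls included Wnt10b at -2.51 ± 0.40 and Rspo2 at -2.08 ± 0.55 (2 of 6). Of 19 Notch genes 3 fell and 2 rose, near the same background. The falls were Notch4 (-2.44 ± 0.45), Rbpj (-1.25 ± 0.18) and Dll1 (-1.51 ± 0.40, 2 of 6).

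**Figure D5:**
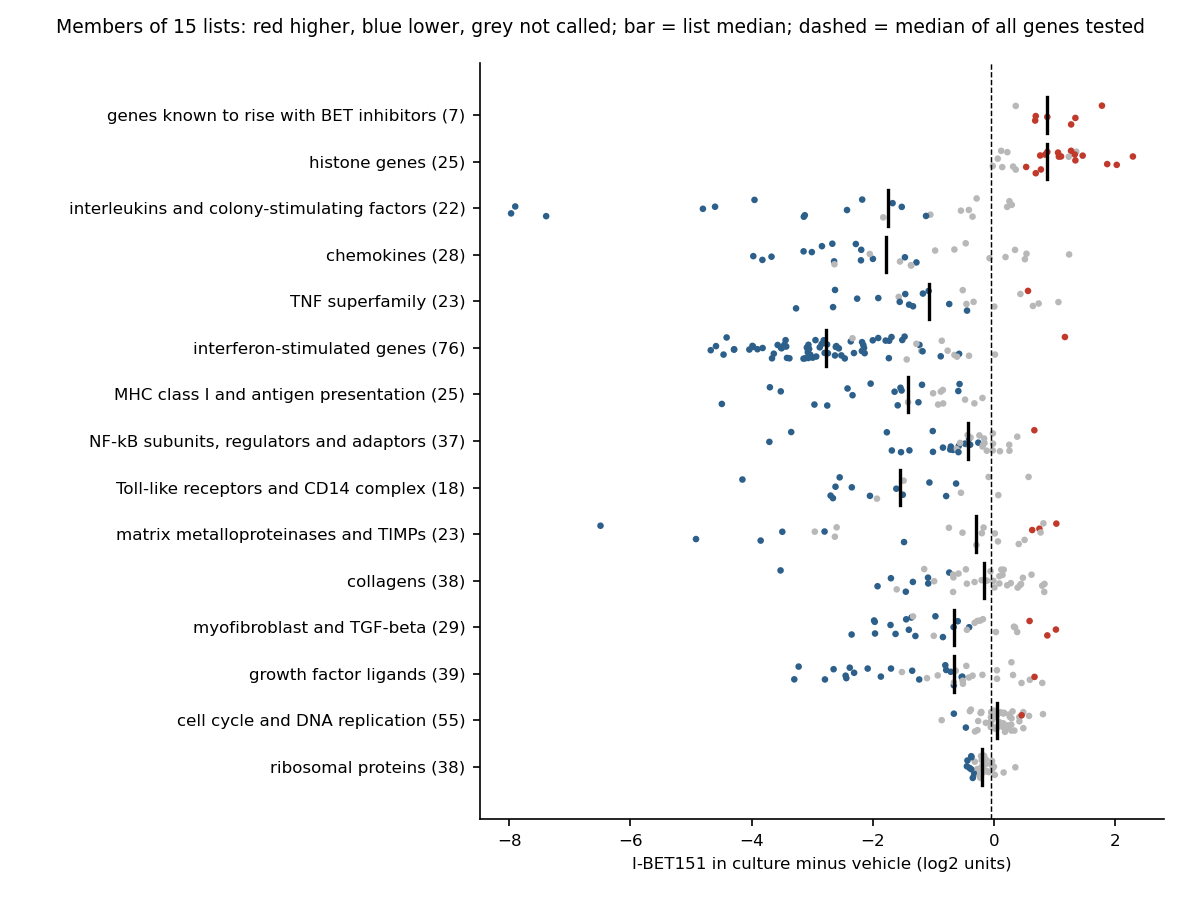
Difference of treated minus vehicle libraries (horizontal axis, log2 units) for each tested member of 15 lists, red where called higher, blue where called lower and grey otherwise, with a bar at the list median and a dashed line at the median of all genes tested (-0.04). Interferon-stimulated genes are spread from -4.67 to 1.17 around a median of -2.77, and cell cycle and ribosomal protein genes lie close to 0.

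Growth and stress programmes gave calls in both directions. Of 29 p53 targets and cyclin-dependent kinase inhibitors 10 fell (5 without in vitro 1, 4 without in vitro 2) and 4 rose. Trp53 itself fell evenly (-0.70 ± 0.08, from 13.06, 13.22 and 13.04 to 12.41, 12.37 and 12.42), as did its target and inhibitor Mdm2 (-1.14 ± 0.23). Cdkn1a, which encodes the cell cycle inhibitor p21, stood at 15.29, 14.99 and 15.79 against 13.97, 13.84 and 14.81 (-1.15 ± 0.30, 2 of 6). The sestrins Sesn3 (1.55 ± 0.20) and Sesn1 (1.14 ± 0.16), which restrain mTOR, rose. Among 27 apoptosis regulators 8 fell and 7 rose, against 17.9% and 13.3% over all genes. Without vehicle 2, in vitro 1 and in vitro 2 the rises were 4, 3 and 2. The survival genes Bcl2a1d (-3.58 ± 0.69) and Bcl2a1a (-3.34 ± 0.45), near copies of each other, fell, and Bcl2l11, the death-promoting BIM, rose from 10.32, 9.57 and 10.35 to 11.64, 11.88 and 11.45 (1.58 ± 0.23).

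Of 27 genes of the unfolded protein and integrated stress responses 4 rose and 2 fell (5 without in vitro 3). Over all genes 13.3% rose and 17.9% fell, so the count of rises does not set the list apart. Nupr1, a small stress-induced nuclear protein, stood at 11.90, 11.31 and 12.55 against 14.51, 14.08 and 13.73 (2.18 ± 0.33), and Ddit3 (1.25 ± 0.19) and the mTOR inhibitor Ddit4 (1.18 ± 0.21) rose, while Atf4 was not called (-0.31 ± 0.19). NRF2 targets and glutathione genes fell in 7 of 25 cases (3 without vehicle 2 or in vitro 2, 11 without in vitro 3) and rose in 1, led by the glutathione transferases Gsta3 (-3.38 ± 0.62) and Gsta2 (-2.84 ± 0.64, 4 of 6). Of 16 heat shock genes 2 rose, the factor Hsf2 (0.73 ± 0.11) and the co-chaperone Dnaja1 (0.38 ± 0.09, 4 of 6), and none fell.

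Energy and lipid metabolism gave few calls. Glycolysis and hypoxia genes rose in 2 and fell in 1 of 32 cases (6 falls without vehicle 1), with the monocarboxylate carrier Slc16a1 at 1.44 ± 0.25 and the oxygen sensor Egln3 at -2.11 ± 0.53 (4 of 6). Oxidative phosphorylation genes rose in 3 and fell in 1 of 38 cases, and centring on the median raised the first count to 10. Of 31 cholesterol and fatty acid genes 4 rose and 1 fell, with the fatty acid enzymes Acaca (1.05 ± 0.18) and Acly (0.96 ± 0.16). Autophagy genes rose in 7 of 36 cases and fell in 5, against 13.3% and 17.9% over all genes. The rises numbered 4 without in vitro 1 or 2, and the falls 3 without vehicle 2 or 3 and 2 without in vitro 2. The starting kinases Ulk1 (0.93 ± 0.14) and Ulk2 (0.97 ± 0.13), the calcium channel Mcoln1 (0.76 ± 0.09) and Map1lc3b (0.52 ± 0.09) rose, and the receptor Sqstm1 (-0.73 ± 0.17, 4 of 6) and the lysosomal regulator Mitf (-1.65 ± 0.18) fell. Mitf was also the single pigment cell marker of 13 tested that fell, and none rose. The part of pigment cells in its fall was not tested. Ribosomal protein genes had a median of -0.20, and 8 of 38 fell, each by less than 0.5 units, against 17.9% over all genes. With median-centred libraries 1 fell. Leaving out vehicle 2, in vitro 1 or in vitro 2 left no call, and leaving out vehicle 3 or in vitro 3 left 2 and 3.

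The largest rises were not concentrated in the lists. Predicted and unnamed genes and pseudogenes were left out of the ranking given here, so not all 6 rises of at least 3 units are named. Strip2, a component of the striatin phosphatase complex (chr6:29917012-29959681, plus strand), stood at 4.73, 5.03 and 4.68 in vehicle and 8.62, 8.54 and 7.70 in treated libraries (3.47 ± 0.30, limma adjusted p = 0.00203). Fam222a (3.36 ± 0.30), Ankmy1 (3.29 ± 0.34), Nnat (3.06 ± 0.62), Zfp541 (3.01 ± 0.36) and Nupr1l, a relative of Nupr1 (2.98 ± 0.26), came next. Vgf, the gene of a neuropeptide precursor, stood at 7.28, 7.14 and 6.70 against 10.48, 10.24 and 9.28 (2.96 ± 0.34). Among genes with a mean of at least 12 Heg1, a receptor of vascular development, rose most, from 11.32, 11.11 and 10.89 to 14.07, 14.11 and 12.80 (2.55 ± 0.35). Gdf11, a ligand of the TGF-beta family, rose evenly from 12.07, 11.61 and 11.86 to 13.89, 13.88 and 13.65 (1.96 ± 0.14). In vitro 3 had the lowest treated value in Strip2, Ankmy1, Zfp541, Nupr1l, Vgf, Heg1 and Gdf11, but not in Fam222a or Nnat. These 9 genes were picked among genes whose groups did not overlap, so their lack of overlap is no result.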

How the data were processed

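Polyadenylated RNA of 12 libraries was sequenced with a stranded kit, per the labels' protocols, and 6 libraries, 3 in each group, were used here. The deposited table holds regularized log2 (rlog) values made by the authors from gene counts, 1 column per library. Cutadapt 1.18, STAR 2.6.1c, featureCounts of Subread 1.6.1, DESeq2 1.24.0 and build GRCm38 are named per the submitters' processing notes. No source used here gives the options of these tools, the gene annotation, the strandedness used in counting or whether rlog was run blind to groups. The rlog transform shrinks weakly counted genes and keeps no depth, so no precision from counting could be given.

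The 16793 genes with a mean of at least 3 were fitted with limma 3.58.1 in R 4.3.3 (variance trend, two-sided, no pseudocount) on these 6 libraries. P-values were adjusted by Benjamini-Hochberg over all genes tested, with a threshold of 0.05. The script was tested on simulated data. An exact permutation test of 3 against 3 cannot go below 0.1 and was not used. Named genes were the 12 largest rises and 12 largest falls with non-overlapping groups and the 6 largest of each with a mean of at least 12. Predicted and unnamed genes and pseudogenes were left out of these. Up to 4 called genes per list and a fixed set were added. Further genes were named after their values were seen. The members and lists were chosen with earlier results of these data known. Gene coordinates are from GENCODE M21 and promoter windows from RefSeq (GRCm38.p6), which matched 11836 of the 16793 genes. Alternatives were the filter, variance trend, moderation, 2 scalings, array weights, all 12 libraries, a replicate block, a minimum difference and each library left out.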

Additional observations from a re-analysis of the deposited data

How the results depend on the processing

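No gene was called in the opposite direction under any alternative, but the number of calls moved. Leaving out 1 library gave 1000 to 2080 rises and 1737 to 2802 falls. One fit over all 12 libraries gave 390 rises and 695 falls, and requiring a difference of at least 1 gave 606 and 1750. Without the filter on low values the counts were 1551 and 2442. A replicate block gave 1680 and 2341, and libraries of the same number had deviations that correlated at -0.266, 0.16 and -0.022, so the numbers were not taken as pairs. Correlations further from 0 joined other numbers, at 0.413 for vehicle 1 with in vitro 3 and 0.366 for vehicle 2 with in vitro 1. Vehicle 2 with in vitro 3 gave -0.44. Whether libraries of different numbers are linked was not tested. Of 349 named genes 320 were called, 224 of them in every leave-one-out fit. In the fit of all 12 libraries 229 of the 320 were no longer called. Among uncalled genes 3 changed sign. With 1 library left out Myc (0.06) ranged from -0.1 (without vehicle 1) to 0.15, and was -0.028 without in vitro 3. Col1a1 (0.12) ranged from -0.096 (without in vitro 2) to 0.502 (without in vitro 3), and was -0.049 without vehicle 1 and -0.037 without in vitro 1. Thy1 (-0.18) ranged from -0.431 (without vehicle 1) to 0.135 (without in vitro 3), and was 0.028 without vehicle 3. The cause was not tested. The rlog values keep no depth, so what depth limits could not be stated.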

Other observations

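Some genes that record position along the limb and body axis were called in each direction. In the HoxA cluster on chromosome 6, whose homeobox genes are read out in order along the limb, neighbours parted. Hoxa5 stood at 8.19, 8.16 and 8.34 in vehicle and 6.64, 6.67 and 7.34 in treated libraries (-1.35 ± 0.24), and Hoxa6 (-1.54 ± 0.35, 3 of 6 leave-one-out fits) and Hoxa7 (-1.07 ± 0.17) fell too. Hoxa9 (0.54 ± 0.09), Hoxa10 (0.68 ± 0.12) and Hoxa13 rose, the last from 10.34, 10.47 and 10.25 to 11.12, 11.30 and 10.80 (0.72 ± 0.15). In the HoxC cluster on chromosome 15 Hoxc4 (-1.28 ± 0.30, 4 of 6), Hoxc6 (-1.67 ± 0.26), Hoxc9 (-1.75 ± 0.29) and Hoxc13 (-1.76 ± 0.40, 3 of 6) fell, and Hoxd13, the most distal gene of the HoxD cluster, rose by 1.20 ± 0.11. Twist1, a mesenchymal transcription factor, rose by 1.34 ± 0.12, whereas its relative Twist2 fell by 1.29 ± 0.20. Of 45 tested Hox and limb genes 6 rose and 11 fell, near the 13.3% and 17.9% over all genes tested, so the counts do not set the list apart. Antisense transcripts overlap parts of the HoxA cluster, and whether the counting used strand is not known here.

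The paternally expressed neighbours Peg10 and Sgce, which start next to each other on chromosome 6 and point away from each other, moved in opposite directions. Peg10 stood at 9.83, 8.88 and 9.31 against 12.49, 12.23 and 11.36 (2.69 ± 0.34), and Sgce at 11.26, 10.98 and 11.27 against 9.09, 9.20 and 9.54 (-1.89 ± 0.16). In the interleukin-1 receptor cluster on chromosome 1 Il18rap (-3.41 ± 0.23), Il1r2 (-1.26 ± 0.26) and Il1rl2 (-1.08 ± 0.34, 1 of 6) fell, and Il1r1, the signalling receptor, was not called (0.68 ± 0.39), though without in vitro 3 its difference was 1.09 and passed (limma adjusted p = 0.0301). Of 21 tested purine and urate genes 3 rose and 5 fell, near the same shares. Nt5e (-2.74 ± 0.39) and Entpd1 (-2.27 ± 0.26), which cleave extracellular nucleotides, were among the falls, and Gda, which deaminates guanine, rose by 1.95 ± 0.27. Of 19 clock genes 5 fell (3 without in vitro 1 or in vitro 2) and none rose, with Per2 at -1.38 ± 0.25 and Nr1d1 at -0.44 ± 0.08.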
